A study of Mus musculus with 8 samples.

Results

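Alpha-defensins, called cryptdins in the mouse intestine, are the small antimicrobial peptides of Paneth cells, and their genes were taken here as every row of the deposited gene table whose symbol begins with Defa followed by a digit or a hyphen. The table holds 39 such genes among 55114, of which 22 are annotated as protein-coding and 17 as pseudogenes. Intestinal crypts were freed by incubation in EDTA, and their RNA was sequenced, in 4 mice without Mex3a (KO) and in 4 of their littermates as controls (WT), all C57BL/6 and 8 weeks old. The KO allele is constitutive (Mex3a-/-) and lacks exon 1 and part of exon 2, so every cell of the animal carries the deletion and not only the intestinal epithelium. The mice received no treatment according to the labels, and each library is 1 mouse. The comparison of KO with WT asks how crypt RNA changes when Mex3a, an RNA-binding protein of intestinal stem cells (ISCs), is absent.

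Paneth cells sit at the base of small intestinal crypts between the ISCs and release granules that hold alpha-defensins, lysozyme and other antimicrobial proteins into the crypt lumen. Alpha-defensins are made as precursors, which the matrix metalloprotease Mmp7 cuts to the active peptide in mice, and each active peptide is held together by disulfide bonds between conserved cysteines. Most of the genes lie side by side in one cluster, have multiplied by duplication, and many copies differ by few bases, so that a short sequencing read often fits several of them.

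The part of the coding sequence that holds the cysteines is shown for the 4 most abundant members and for the copies on which the differences between mice turn, read from the GENCODE M21 transcripts of GRCm38 from the first to the last cysteine codon, with the cysteine codons in capitals.
Defa24: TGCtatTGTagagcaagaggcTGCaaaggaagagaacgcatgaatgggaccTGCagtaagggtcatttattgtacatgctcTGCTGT
Defa30: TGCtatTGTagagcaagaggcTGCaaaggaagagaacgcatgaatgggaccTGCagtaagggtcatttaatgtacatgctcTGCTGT
Defa21: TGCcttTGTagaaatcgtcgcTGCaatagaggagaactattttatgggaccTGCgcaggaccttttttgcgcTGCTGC
Defa22: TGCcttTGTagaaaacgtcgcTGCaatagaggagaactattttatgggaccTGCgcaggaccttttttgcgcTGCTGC
Defa20: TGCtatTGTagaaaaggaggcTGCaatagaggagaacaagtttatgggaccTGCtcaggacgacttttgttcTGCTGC
Defa37: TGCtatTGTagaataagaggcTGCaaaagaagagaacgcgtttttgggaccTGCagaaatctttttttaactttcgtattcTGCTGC
Of the 22 coding members, 20 fit this cysteine pattern, in which the gap between the fourth and the fifth cysteine varies and the stretch is 78, 87 or 90 bases long, and the exceptions are Defa28 and Defa29. The stretch printed for Defa20 is identical in Defa2, Defa32 and Defa33, and the stretch printed for Defa37 is identical in Defa5, Defa34, Defa35 and Defa36. The 20 members share 11 distinct stretches, and the 22 coding members share 17 distinct coding sequences.

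Some copies could hardly be told apart by reads. The 425-base transcripts of Defa20 and Defa32 differ only by A343G, and the 426-base transcripts of Defa2 and Defa33 only by A345G, in each case outside the coding sequence (the base of the first gene, the position from the transcript's 5′ end, then the base of the second). Of all 100-base windows of a transcript, none of Defa2, Defa33, Defa31 and Defa37 and 0.307% of Defa20 and of Defa32 were absent from the transcripts of every other gene. Every window of Defa24 was its own, as were 99.7% of those of Defa30, the highest shares among the coding members. The share was 59.6% for Defa21 and 59.7% for Defa22. It was under 50% in 16 of the 39 members, and how the authors' counting treated reads with several matches is not given in the sources used here. Values of single members with near-identical copies are uncertain for this reason, and the family sum is given beside them.

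The upstream sequences were also shared. RefSeq windows (GRCm38.p6, 300 bases around the annotated start, 250 of them upstream) matched 12 members, and the 250 upstream bases are shown for Defa20, of the pair of copies that differ by 1 base and are compared between mice further on, and for Defa37, the single member with an unadjusted p under 0.05. The capitals mark TATAAA and ATCAAAG, the reverse complement of CTTTGAT, a form of the sequence recognised by the TCF/LEF factors of WNT signalling.
Defa20: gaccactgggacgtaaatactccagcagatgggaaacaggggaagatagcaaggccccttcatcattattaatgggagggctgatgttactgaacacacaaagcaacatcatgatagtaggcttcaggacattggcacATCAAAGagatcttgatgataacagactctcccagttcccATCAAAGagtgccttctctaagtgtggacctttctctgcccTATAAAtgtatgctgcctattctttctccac
Defa37: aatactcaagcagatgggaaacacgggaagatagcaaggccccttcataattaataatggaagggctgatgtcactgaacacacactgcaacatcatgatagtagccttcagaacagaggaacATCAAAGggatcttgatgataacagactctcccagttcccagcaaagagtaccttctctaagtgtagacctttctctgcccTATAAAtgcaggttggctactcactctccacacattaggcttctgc
These stretches lie on the plus strand at chr8:21509008-21509257 and chr8:21565136-21565385. The first is identical upstream of Defa2, and 248 consecutive bases of it recur upstream of Defa32, whose window is placed at a start annotated 2 bases away. The second is identical upstream of Defa36. CTTTGAT on either strand was found in 12 of the 12 windows of the family against 3.73% of all 32851 windows, TATAAA in 11 of 12 against 13.6%, and CTTTGAA, another TCF/LEF form, in 0 of 12 against 5.13%. The motifs do not overlap one another in these windows, near-identical promoters are not independent of each other, and a match is a stretch of letters and not a measured binding site.

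Sequencing depth was 20324184 to 24726221 counts on genes in WT and 23489180 to 30654105 in KO. Mex3a was counted 236 to 328 times in the WT mice and 6 to 28 times in the KO mice (log2 fold change -4.43 ± 0.43 SE, edgeR quasi-likelihood test with Benjamini-Hochberg adjustment, adjusted p = 0.0310; two-sided exact permutation test over the 70 assignments of the mice, p = 0.0286, the smallest this design allows), so the genotypes matched their labels. The labels give no sex: replicates 1 and 2 of each genotype had transcripts of the Y-linked gene Ddx3y, and replicates 3 and 4 had Xist, so the replicate number and sex coincide in part. Of the Paneth cell marker genes Lyz1, Ang4, Mmp7, Mptx1, Mptx2, Itln1 and Pla2g2a, all had counts, as the tissue label would have it.

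The family as a whole took 0.524% to 3.53% of all counts in a mouse. Its sum, in CPM (counts scaled to a fixed library size after TMM normalisation), was 35898 in WT replicate 1, 9629 in WT replicate 2, 13984 in WT replicate 3 and 19757 in WT replicate 4. In KO it was 10065, 4986, 16284 and 21583 in replicates 1 to 4. WT replicate 1 stood highest and KO replicate 2 lowest, 7.20-fold apart, and the genotypes overlapped between 9629 and 21583 CPM. The means were 19817 ± 11495 (SD, n = 4) in WT and 13229 ± 7236 (SD, n = 4) in KO. Fitted as 1 feature, the sum had a log2 fold change of -0.58 ± 0.49 (SE; 95% interval -1.68 to 0.52), a difference within the spread between mice. Without WT replicate 1 the value was -0.13, and without KO replicate 4 it was -0.92. In RNA of whole crypts, fewer Paneth cells and less defensin RNA in each of them cannot be told apart.

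**Figure D1:**
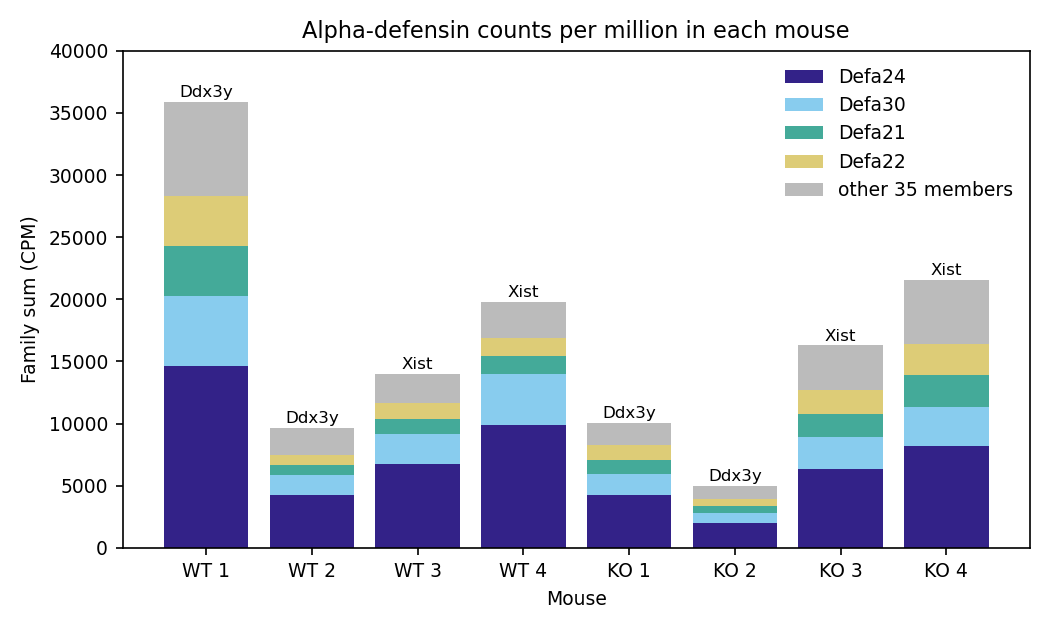
CPM of the whole family in each of the 8 mice (bars from 0), divided into Defa24, Defa30, Defa21, Defa22 and the other members, with the sex-linked transcript found in that mouse above each bar. WT replicate 1 reached 35898 CPM and KO replicate 2 4986 CPM, and the bars of both genotypes overlap.

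A few members made up most of the family's RNA. The 4 most abundant, Defa24, Defa30, Defa21 and Defa22, held 75.9% to 85.3% of the family's counts in a mouse, and the 10 most abundant held 91.6% to 95.4%. The 17 pseudogenes together held 0.247% to 0.339%, and none of them had a mean above 80.7 FPKM (fragments per kilobase of gene length, scaled to library size, a scale on which genes of different length can be compared). Of the 39 members, 30 passed the filter on low counts, 21 of them coding. The coding gene Defa25 (at most 21 counts in a mouse) and 8 pseudogenes did not pass, and 5 of these, Defa-ps8 and Defa-ps12 to Defa-ps15, had no count in any mouse. The latter 4 are the members outside the main cluster, which spans 35 members between positions 21025545 and 21750000 of chromosome 8 (GRCm38).

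Defa24 (ENSMUSG00000064213, chromosome 8, 21734494 to 21735471), a secreted cryptdin, was the most abundant member at a mean of 16696 FPKM. It was at 34497, 10119, 16115 and 23373 FPKM in WT replicates 1 to 4 and at 10164, 4796, 15058 and 19442 FPKM in KO replicates 1 to 4. The genotypes overlapped, with WT replicate 1 above and KO replicate 2 below all other mice (log2 fold change -0.78 ± 0.46 SE, adjusted p = 0.678). Compared by replicate number, Defa24 was lower in KO in all 4 pairs in CPM, at 4252 against 14647, 2011 against 4263, 6329 against 6760 and 8161 against 9867. Its log2 fold change was -0.43 without WT replicate 1 and -1.08 without KO replicate 4. Defa30 (21134642 to 21135598) was at 13840, 4051, 6013 and 10230 FPKM in WT and at 4206, 1889, 6507 and 7931 FPKM in KO, in the same order of replicates. Its mice ranked much as for Defa24, and again no separation of the genotypes was seen (-0.74 ± 0.47, adjusted p = 0.704; -0.40 without WT replicate 1 and -1.03 without KO replicate 4).

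Defa21 and Defa22, whose transcripts are 99.3% identical, had almost equal levels. Defa21 was at 9614, 1921, 2956 and 3542 FPKM in WT and at 2714, 1401, 4351 and 6212 FPKM in KO. Defa22 was at 9445, 1887, 2990 and 3289 FPKM in WT and at 2859, 1346, 4668 and 5860 FPKM in KO. In both, KO replicates 3 and 4 stood above every WT mouse but replicate 1. The log2 fold changes were -0.31 ± 0.55 (adjusted p = 0.928) and -0.27 ± 0.55 (adjusted p = 0.939), and both turned positive, to 0.38 and 0.43, without WT replicate 1.

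The next members stood between 730 and 1135 FPKM on average, far below Defa24. Defa17 was at 1211, 997, 1005 and 1593 FPKM in WT and at 645, 318, 1208 and 2100 FPKM in KO. Defa29, which lacks this cysteine pattern, was at 1666, 1056, 505 and 738 FPKM in WT and at 558, 485, 818 and 855 FPKM in KO. The KO mice of Defa29 lay close together, within the range of the WT mice except for replicate 2. Defa2 was at 2053, 383, 743 and 908 FPKM in WT and at 435, 201, 781 and 1097 FPKM in KO. Defa23 was at 1432, 260, 642 and 883 FPKM in WT and at 562, 128, 589 and 1342 FPKM in KO. In each of these genes the genotypes overlapped, and the adjusted p ranged from 0.695 for Defa29 to 0.957 for Defa17. Without WT replicate 1 the log2 fold change moved from -0.56 to -0.18 for Defa29 and from -0.71 to -0.11 for Defa2, and without KO replicate 4 that of Defa2 was -1.12.

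Defa20 and Defa32 were the abundant members with a positive fold change. Defa20 (21509258 to 21510237) was at 1816, 373, 406 and 384 FPKM in WT and at 658, 358, 1276 and 1549 FPKM in KO. The WT mice other than replicate 1 lay close together, and 3 of the 4 KO mice stood above them (0.35 ± 0.62, adjusted p = 0.925). The value was 1.30 ± 0.44 without WT replicate 1 (adjusted p = 0.707) and 0.02 without KO replicate 4. Defa32 (21529032 to 21530012) was at 2264, 168, 490 and 67.0 FPKM in WT and at 56.0, 34.4, 1419 and 2959 FPKM in KO. It was high in WT replicate 1 and in KO replicates 3 and 4 and low in the others, an 86.0-fold range in CPM that left the fold change undetermined (0.57 ± 1.38, adjusted p = 0.951).

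**Figure D2:**
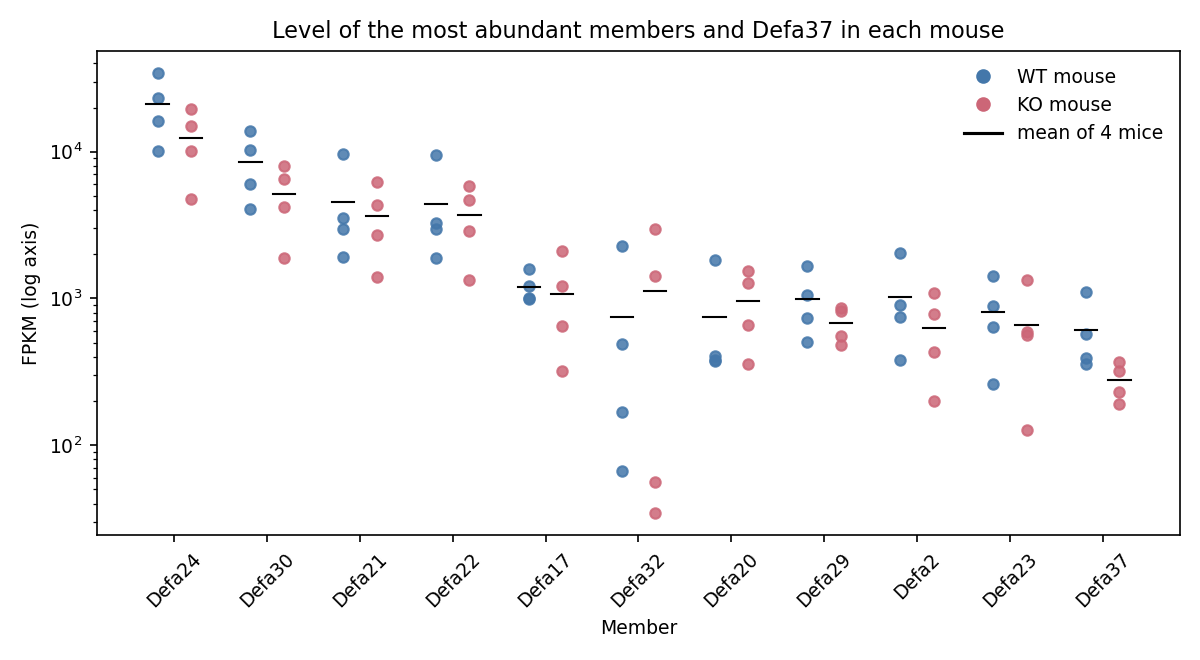
FPKM (log axis) of the 10 most abundant members and Defa37 in each mouse, with a line at the mean of the 4 mice of each genotype. WT and KO points overlap in every member shown, and Defa32 spreads from 34.4 to 2959 FPKM.

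Defa37 (ENSMUSG00000065956, 21565386 to 21566349) was the member with the smallest p. It was at 1098, 391, 359 and 575 FPKM in WT and at 321, 191, 232 and 367 FPKM in KO. Of the KO mice, only replicate 4 reached into the WT range, where it stood just above WT replicate 3. The log2 fold change was -1.14 ± 0.36 (SE; 95% interval -1.95 to -0.32) with an unadjusted p of 0.0113, but the adjusted p over all 16109 genes was 0.518. Without WT replicate 1 the log2 fold change was -0.68. None of the 100-base windows of Defa37 was its own, so reads of that length could not separate its counts from those of related members. The read length is not given in the sources used here. Defa36, which has the same coding sequence, differed by -0.56 ± 0.69 (adjusted p = 0.874). The ratio of Defa36 to Defa37 counts was 0.948, 0.351, 0.679 and 0.438 in WT and 0.518, 0.443, 2.00 and 1.17 in KO.

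Across the family, 26 of the 30 members tested had a negative fold change, 19 of them coding, against 53.9% of all genes tested, and the median log2 fold change was -0.54 against -0.02 over all genes. The members share reads and mice, so these signs are not independent of each other. With edgeR, 1 member had an unadjusted p under 0.05 and was lower in KO, where 3.05% of all genes tested were called in that direction, and 0 were higher, where 5.33% of all genes were. With edgeR, 0 members had an adjusted p under 0.05, against 0.00621% of all genes, which is Mex3a alone. With DESeq2, 0 members had one, against 0.669% of the genes given an adjusted p. The genotypes failed to overlap in CPM in 0 of the 30 members, against 4.05% of all genes. The fold changes ran from -1.85 for Defa31 to 0.57 for Defa32. The 4 positive ones belonged to Defa32, Defa20 and the pseudogenes Defa-ps5 and Defa-ps17.

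With the replicate number as a block, which treats same-numbered mice as pairs, 4 members had an unadjusted p under 0.05, all lower in KO, against 4.13% of all genes in that fit. They were Defa5 (-1.20 ± 0.26), Defa24 (-0.81 ± 0.28), Defa30 (-0.77 ± 0.29) and Defa37, none of which had an adjusted p under 0.05. Their adjusted p in edgeR lay between 0.186 for Defa37 and 0.393 for Defa30.

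**Figure D3:**
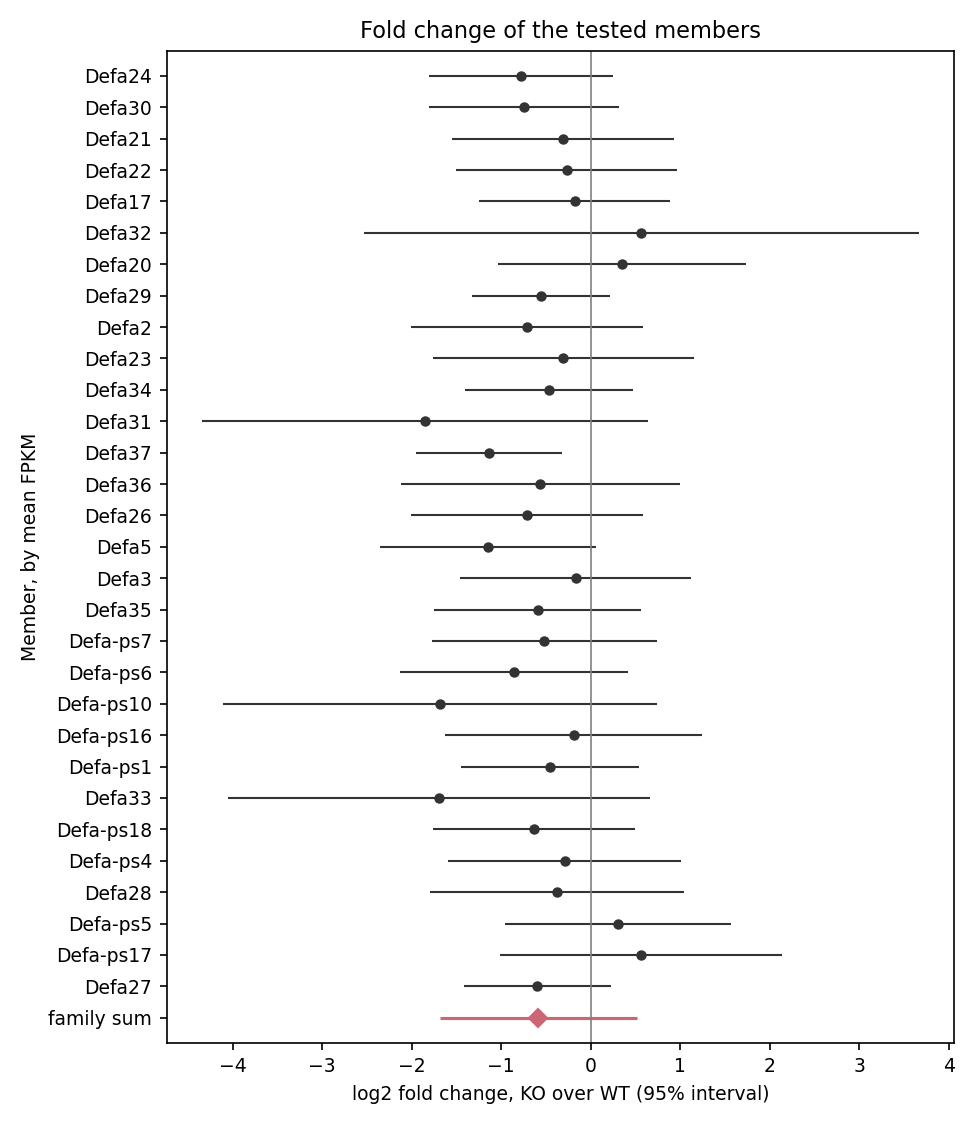
Log2 fold change of KO over WT with its 95% interval for the 30 members tested, ordered by mean FPKM, and for the family sum (diamond). All intervals but that of Defa37 include 0, and the widest are those of Defa32 and Defa31.

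Mice of one genotype differed far more in these genes than in most others. The SD of log2 CPM within genotypes had a median of 0.93 over the 30 members, against 0.20 over all genes tested. All 15 members at a mean of 100 CPM or more had an SD above the median of 0.13 over the 2134 genes at that level. The SD of Defa24 (0.82) was above that of 97.5% of all genes tested, and the SD of Defa32 (2.75) above that of 99.9%. The spread was shared across the family: 26 of the 30 members were highest in WT replicate 1 and 21 were lowest in KO replicate 2.

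A second kind of spread lay in the mixture of members. The ratio of Defa24 to Defa30 counts stayed between 2.41 and 2.82 in all 8 mice, and that of Defa21 to Defa22 between 0.930 and 1.07. The ratio of Defa32 to Defa20, whose transcripts differ by 1 base, was 1.25, 0.450, 1.20 and 0.175 in WT and 0.0852, 0.0961, 1.11 and 1.91 in KO. The ratio of Defa31 to Defa23, which encode the same protein, was 1.48, 1.53, 0.131 and 0.107 in WT and 0.0491, 1.20, 0.783 and 0.0859 in KO. High and low ratios occurred in both genotypes, and a mouse with a high ratio for one of these pairs could have a low one for the other, as WT replicate 3 and KO replicate 2 had. Defa31 was included here after its values were seen. Its level was 2314 FPKM in WT replicate 1 and 30.1 FPKM in KO replicate 1.

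Summing copies of at least 98% transcript identity left the differences between mice wide. The set of Defa2, Defa20, Defa32 and Defa33 reached 2664, 396, 702 and 587 CPM in WT and 489, 253, 1486 and 2392 CPM in KO. Its highest and lowest mice were 10.5-fold apart, against 86.0-fold for Defa32, 10.3-fold for Defa2, 5.13-fold for Defa20 and, at low counts, 262-fold for Defa33 alone. The mean log2 difference of KO from WT in this set was 0.00 ± 0.95 (SE). For Defa21 with Defa22 it was -0.21 ± 0.68, and for Defa5 with Defa34 -0.55 ± 0.50.

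**Figure D4:**
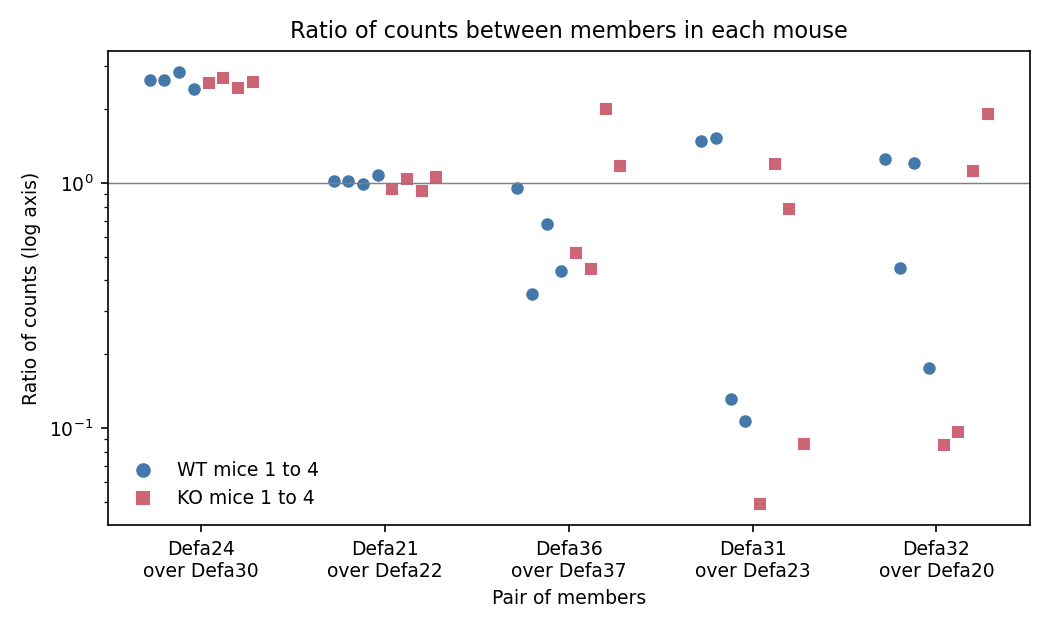
Ratio of counts (log axis) between 5 pairs of members in each mouse, with WT replicates 1 to 4 as circles and KO replicates 1 to 4 as squares, from left to right. The ratio of Defa24 to Defa30 stays between 2.41 and 2.82, while that of Defa32 to Defa20 runs from 0.0852 to 1.91.

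As shares of the family's counts, most members did not separate the genotypes. The shares of 3 of the 30 members did not overlap between the genotypes. Of all genes set against the family sum in the same way, 2.25% did not overlap, which is not a like comparison. Dividing by the family sum takes out the spread that the members share and puts that spread into other genes. Defa20 held 2.18%, 1.66%, 1.24% and 0.831% in WT and 2.77%, 3.06%, 3.34% and 3.06% in KO, so that each KO mouse had a larger share than any WT mouse. Only 0.307% of the 100-base windows of Defa20 were its own, so its share depends on how reads were divided among Defa2, Defa20, Defa32 and Defa33. The summed CPM of these copies overlapped between the genotypes, and their summed share was not tested. Defa22 held 7.03% to 11.2% in WT and at least 11.3% in KO, a gap much smaller than the range among the WT mice, and the third was the pseudogene Defa-ps17 at under 0.01% in all mice. The share of Defa24 was 45.8% ± 4.12 (SD, n = 4) in WT and 39.8% ± 1.92 (SD, n = 4) in KO, with overlap. Replicate 2 of both genotypes had a mixture of its own: Defa29 held 5.60% in WT and 4.94% in KO there and 1.84% to 2.81% in the other mice, and Defa35 held 0.572% and 0.912% against 0.0883% to 0.193%.

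The family sum differed from WT in opposite directions in the mice with Ddx3y and those with Xist, a split examined after the values were seen. Replicate by replicate, the family sum in KO was 0.280 and 0.518 of that in WT for numbers 1 and 2, which had Ddx3y. It was 1.16 and 1.09 of WT for numbers 3 and 4, which had Xist. In the Ddx3y mice the mean log2 difference of KO from WT was -1.39 for the family and -1.40 for the sum of other Paneth cell products. In the Xist mice it was 0.17 and -0.08. All 30 members had a lower mean log2 CPM in KO in the Ddx3y mice, and 7 of 30 in the Xist mice. In an edgeR fit of genotype, sex and their interaction over all genes, 14 of the 30 members had an unadjusted p under 0.05 for the interaction against 3.82% of all genes, and no gene, member or not, had an adjusted p under 0.05. The interaction estimate was negative in all 30 members, against 53.0% of all genes, which is a more negative difference in the Ddx3y mice. The members share reads and mice, so these counts and signs are not independent of each other. The smallest p was that of Defa29 (interaction -1.82 ± 0.35 SE, unadjusted 0.000977, edgeR adjusted p = 0.974). Without WT replicate 1, 6 of 31 members had an unadjusted p under 0.05, against 3.7% of all genes, and 22 a negative estimate. Leaving out another mouse gave from 5 of 31 members, against 2.31% of all genes (without WT replicate 3), to 24 of 31, against 11.2% of all genes (without WT replicate 2). Each genotype held 2 mice of each kind, and sex and the replicate number cannot be told apart here.

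Most other Paneth cell products had the same highest and lowest mice as the family: of 11 tested, 9 were highest in WT replicate 1 and 8 lowest in KO replicate 2. The list holds 13 products, and all 11 tested had a negative fold change, with a median of -0.66. Pla2g2a, a secreted phospholipase gene named after its values were seen, departed from this order. It was at 3922, 49.5, 1316 and 1765 CPM in WT and at 1089, 57.0, 63.3 and 74.5 CPM in KO, with KO replicates 3 and 4 among its low mice (-2.46 ± 1.29, edgeR adjusted p = 0.640). Lyz1, the gene of Paneth cell lysozyme, was at 17651, 6853, 5248 and 8509 CPM in WT and at 4805, 3445, 5896 and 9369 CPM in KO (-0.70 ± 0.41 SE, adjusted p = 0.671; two-sided exact permutation p = 0.257). Mmp7, whose product processes the alpha-defensin precursors, was at 507, 171, 225 and 341 CPM in WT and at 160, 170, 274 and 332 CPM in KO (-0.41 ± 0.35, adjusted p = 0.793; exact permutation p = 0.429). For both genes WT replicate 1 was the highest mouse, and the genotypes overlapped. Mptx2 and Mptx1, mucosal pentraxins, had an unadjusted p under 0.05, at -1.32 ± 0.54 and -0.89 ± 0.39, with edgeR adjusted p = 0.565 and 0.589; Mptx1 was highest in WT replicate 3, and Mptx2 lowest in KO replicate 3.

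The family sum was also set against these products. The family sum over the sum of the other Paneth cell products was 0.999, 0.886, 1.16 and 1.12 in WT and 1.03, 0.864, 1.40 and 1.33 in KO. KO replicates 3 and 4 stood above every WT mouse, and KO replicates 1 and 2 did not. The denominator includes Pla2g2a, at 63.3 and 74.5 CPM in KO replicates 3 and 4 and at 3922, 49.5, 1316 and 1765 CPM in WT. Over Lyz1 alone, KO replicate 3 (2.76) stood above WT replicates 3 (2.66) and 4 (2.32), and KO replicate 4 (2.30) below them. The ratio without Pla2g2a was not tested. Over all mice this ratio ranged 1.62-fold, whereas the family sum ranged 7.20-fold and the sum of the other Paneth cell products 6.23-fold. The mean log2 difference of KO from WT in the ratio was 0.13 ± 0.19 (SE), from 0.03 without KO replicate 3 to 0.26 without KO replicate 2, and with Lyz1 alone as the denominator it was 0.03 ± 0.28.

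**Figure D5:**
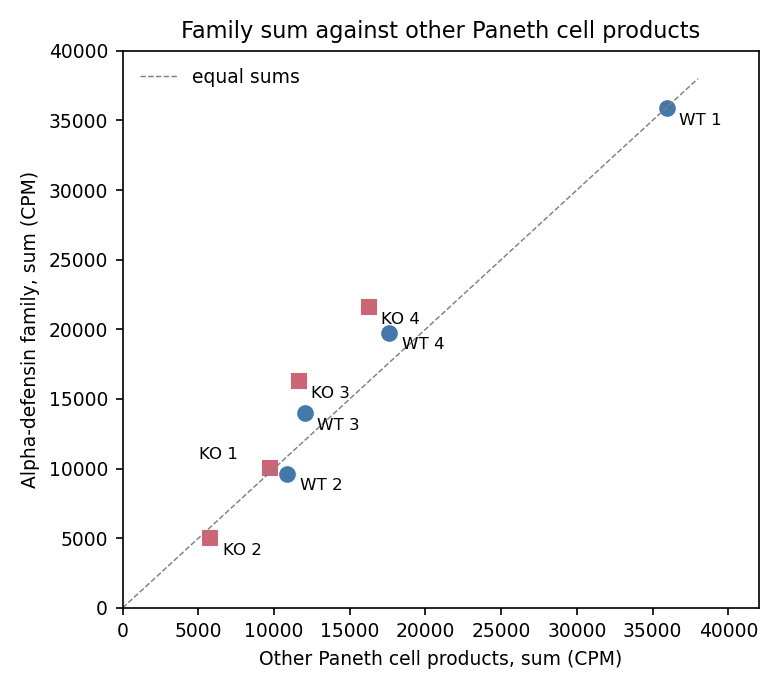
Family sum against the sum of the other Paneth cell products, both in CPM, 1 point per mouse (WT circles, KO squares), with a dashed line where the sums are equal. The ratio of the sums stays between 0.864 and 1.40 while the family sum runs from 4986 to 35898 CPM.

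A list of 7 genes of the same cluster under other symbols was set beside the family, of which 5 lack the cysteine pattern above, as Defa28 and Defa29 do. Of these 7 genes 6 were tested, all 6 had a negative fold change (median -0.61), and none had an unadjusted p under 0.05. Their sum ran from 2378 to 9820 CPM in WT and from 1050 to 6042 CPM in KO, a 9.35-fold range over all mice. The 16 genes for Paneth cell fate and granules were split evenly, with 8 lower and 8 higher in KO and a median of -0.01. Of these, the surface sialoglycoprotein gene Cd24a had an unadjusted p under 0.05 (-0.41 ± 0.15, edgeR adjusted p = 0.545).

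Antimicrobial genes outside the Paneth cell list had fold changes of both signs. Of 10 tested, 5 were lower and 5 higher in KO, 3 higher and 1 lower at an unadjusted p under 0.05, against 5.33% of all genes higher and 3.05% lower. The lectin genes Reg3b (1.08 ± 0.40) and Reg3a (0.84 ± 0.31) and the goblet cell lectin gene Zg16 (0.65 ± 0.18) had positive values, and the goblet cell gene Retnlb a negative one (-2.15 ± 0.64). Their adjusted p in edgeR was 0.518 to 0.545.

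Lists of markers of other cells and of position along the intestine were read beside the family, where 5.33% of all genes had an unadjusted p under 0.05 with a positive fold change and 3.05% with a negative one. All 5 ileum genes had a positive fold change with an unadjusted p under 0.05 (median 1.51), with a sum of 81.8 to 413 CPM in WT and 436 to 918 CPM in KO. Among the proximal genes 1 of 6 was lower and 1 higher at that p (sum 355 to 475 CPM in WT and 285 to 414 CPM in KO), and of the 5 colon genes, 2 were tested and 0 had such a p (72.3 to 126 CPM against 97.4 to 142 CPM). All 10 enterocyte genes had a positive fold change, 3 with an unadjusted p under 0.05 (2452 to 5469 CPM in WT, 3646 to 12098 CPM in KO), and all 9 stem cell genes a negative one, 6 with such a p (5740 to 6363 CPM in WT, 4338 to 5333 CPM in KO). Of 8 goblet cell genes, 1 was lower and 2 were higher at that p (5184 to 6654 CPM against 5758 to 8146 CPM). Of 7 immune cell genes, 2 were higher at that p (36.0 to 56.0 CPM against 41.8 to 67.1 CPM), as was 1 of 6 enteroendocrine genes (224 to 397 CPM against 286 to 312 CPM). None of 5 tuft cell genes (54.2 to 128 CPM against 42.6 to 71.9 CPM) or of 4 stroma genes tested (4.34 to 10.8 CPM against 4.99 to 14.1 CPM) had such a p with edgeR. No marker of these lists had an adjusted p under 0.05, and their part in the defensin values was not tested.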

How the data were processed

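Crypt RNA of 4 WT and 4 KO mice was sequenced, and groups and replicate numbers were taken from the labels. Per the labels, CASAVA, HISAT2 2.0.5 and featureCounts 1.5.0-p3 were used. The count columns the authors deposited hold whole reads per gene (GRCm38 coordinates) without normalization, and the deposited FPKM columns scale them by gene length and depth. The authors also deposited group means, fold changes, p-values and a list of differentially expressed genes, which were not used. The strand, the read length and the treatment of reads with several matches are not given in the sources used here. Members and gene lists were chosen with earlier results of these data known.

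Counts were compared with edgeR 4.0.16 (R 4.3.3): filterByExpr with a minimum count of 10, TMM factors, the quasi-likelihood test with genotype as the only term, and Benjamini-Hochberg adjustment over 16109 genes at 0.05. The family was also summed per mouse and fitted as 1 feature, without a p. Single genes outside it were tested with exact permutation (scipy 1.17.1). The alternatives were DESeq2 1.42.0, limma 3.58.1 on log2 FPKM, other factors and filters, a sex covariate, a replicate block and leaving out each mouse. The interaction with sex, the sums of copies and the resemblance of mixtures were added after seeing the data. Tests were checked on simulated counts. Spread was the SD of log2(CPM + 0.5).

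Members given in every mouse were the 10 with the highest mean FPKM and those with an unadjusted p under 0.05. Genes of the Paneth cell and antimicrobial lists were named at an unadjusted p under 0.05, at most 4 a list, besides Lyz1, Mmp7 and Mex3a. Pla2g2a was named after its values were seen. The marker lists of other cells and of position are given by counts and sums, without names. Sequences were compared with edlib 1.3.9.post1 (Python 3.11.15). Windows of 100 bases were compared over all GENCODE transcripts. As to pairing, mice of the same number departed together from the means of their genotypes (Pearson r 0.129 to 0.501 in the 4 pairs, or 0.0904 to 0.474 on autosomes), so blocked values are given where they change a count of calls, while the main fit and the permutation tests have no block. The labels do not say what a number marks. No library was a copy of another of its genotype (chi-square over its degrees of freedom 23.4 to 86.3). Counting error is small beside the spread between mice for the abundant members.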

Additional observations from a re-analysis of the deposited data

Results flagged for a closer look

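Defa20 in WT replicate 1 (782 CPM) stood apart from the other 3 WT mice, of which the nearest was at 173 CPM, by Dixon's test at the 95% level. It was the single such case among 28 groups of 4 mice examined, and chance gives about 1 in 20. The KO mice of Defa20 did not contain such a mouse.

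The family sum in KO was 0.331 of that in WT in the mice with Ddx3y transcripts and 1.12 of it in the mice with Xist, and the same-numbered pairs moved down in the first and up in the second. This difference was not tested for the sum, and the interactions of single members are given with the results above.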

How the results depend on the processing

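The family sum had a negative log2 fold change in all alternatives run, from -0.92 without KO replicate 4 to -0.13 without WT replicate 1. With the replicate block it was -0.60, with the sex covariate -0.72, with the sum of FPKM -0.60 and without the most abundant member, Defa24, -0.44. No member reached an adjusted p under 0.05 in any alternative. The number of members with an unadjusted p under 0.05 and lower in KO was 1 of 30 (3.05% of all genes) and became 2 of 34 without the filter on low counts (2.24%), 4 of 30 with the replicate block (4.13%) and 2 of 30 with the sex covariate (4% of all genes in that fit). It ranged from 1 to 4 when single mice were left out, with 4 of 31 without WT replicate 2 (3.37% of all genes), namely Defa5, Defa37, Defa-ps10 and Defa-ps18, and 2 without WT replicate 3 (2.37%), KO replicate 3 (2.17%) or KO replicate 4 (2.47%). Higher in KO, the number was 0, and 0 to 2 when single mice were left out (Defa20 and Defa-ps17 of 31 without WT replicate 1, against 4.06% of all genes). Defa37 kept its unadjusted p under 0.05 in all 18 alternatives, with adjusted p from 0.186 to 0.952. None of these alternatives changed how reads were divided among copies, and Defa37 was not summed with Defa36 as a pair. Leaving out single mice turned the sign of Defa21 (-0.69 to 0.38), Defa22 (-0.59 to 0.43), Defa17 (-0.74 to 0.13), Defa23 (-0.93 to 0.13) and Defa32 (-0.58 to 2.21), the lowest without KO replicate 4 in each case and the highest without WT replicate 1, for Defa17 without KO replicate 2. Defa32 also turned to -0.28 with the replicate block, -0.86 with the sex covariate, -0.15 with limma on log2(FPKM + 1) and -0.16 on log2(FPKM + 0.1). At an unadjusted p under 0.05 the replicate block added Defa24, Defa30 and Defa5, and it changed no call at an adjusted p under 0.05. The cause of these changes was not tested. The log2 difference of KO from WT in the ratio to the Paneth cell products was 0.13, and ranged from 0.03 to 0.26 when single mice were left out.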
